A study of Homo sapiens with 8 samples.

Results

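The genes for the proteins of the cytosolic ribosome were examined. They were chosen by symbol, and a gene was taken if it was named RPL, RPLP, RPS or RPSA as a protein of the large or small subunit, which gave 82 of the 23459 genes in the table, 52 of the large and 30 of the small subunit. Of these, 76 encode the standard proteins and are called core genes here, 46 of them of the large subunit. The remaining 6 encode proteins closely related to a standard one, namely RPL3L, RPL7L1, RPL10L, RPL22L1, RPL26L1 and RPL39L. No measured value entered this rule on names, although earlier results of these data were known when the genes were chosen. Exons of all 82 genes were counted, 79 genes passed the filter on low counts, and RPL3L, RPL10L and RPL39L did not.

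The cytosolic ribosome is the machine that reads messenger RNA and joins amino acids into protein. Its large subunit holds the site where peptide bonds form, and its small subunit holds the site where the message is decoded. Each subunit is built from ribosomal RNA and a set of proteins that are used in near equal numbers, so that the genes for these proteins are among the most strongly transcribed of a growing cell. Their messages are known for a run of pyrimidine bases at the very start, through which their translation follows nutrient and growth signals.

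RNA came from Hct116, an established human colorectal carcinoma cell line grown as a monolayer in DMEM with foetal bovine serum. Cells of 4 libraries were given 30 μM lenalidomide for 16 h, and cells of the other 4 libraries received the same amount of its solvent DMSO. Lenalidomide is a thalidomide analogue that binds cereblon, the substrate receptor of a ubiquitin ligase, and directs it to new target proteins. The methods add that RNA was taken from cells split with a proteomic experiment. For it, cells were kept in DMEM made without arginine and lysine, to which dialysed serum and unlabelled arginine and lysine were added. They were moved into medium with heavy arginine and lysine when the compound or DMSO was added. In that experiment 2 of the 4 replicates of each treatment were reverse ones, with the labels swapped, and the labels of the libraries do not say which. Apart from the compound, both groups shared the line, this exchange of medium and the time, and 1 line is the only model. The design text and the study's figure legend for the RNA data call the 4 samples of a treatment biological replicates. The methods, however, call the replicates of the matched proteomic experiment technical, so that p-values measure the spread between these samples only.

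The libraries held between 28218471 and 37473413 counts, with all 4 totals of the DMSO group above those of the lenalidomide group. Epithelial markers were high, with EPCAM between 557 and 665 CPM (counts scaled to 1000000 per library) and KRT19 between 767 and 952 CPM, while PTPRC, CD3E, PECAM1 and ALB, which mark blood cells, T cells, endothelium and hepatocytes, had at most 12 counts in any library. COL1A1, a fibroblast marker, had between 81 and 122 counts. CPM values were also scaled by TMM, a factor that sets most genes to no change. Over all 13925 genes tested, 2 passed edgeR's quasi-likelihood test at an adjusted p of 0.05, LMBRD1 and ZHX1, and neither belongs to the ribosome.

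The start of the ribosomal protein genes was examined first, because the pyrimidine run there is the feature the family is known for. RefSeq promoters on GRCh38.p14 matched 66 of the 82 genes by Entrez gene number. A run was counted where at least 8 bases in a row were C or T on the strand of the transcript and the run overlapped the 20 bases before or after the listed start. The other strand was not searched, and a run overlaps any motif made of the same letters. Such a run was found in 57 of the 66 genes, or 86.4%, in 35 of 42 large subunit genes and in 22 of 24 small subunit genes. Among all 27305 genes with a listed promoter, 25.8% held one, and among the 10849 tested genes that matched it 26.1% did. Of 74 genes for mitochondrial ribosomal proteins, which make up the separate ribosome of that organelle, 11 held one, or 14.9%. The median of the longest run was 12 bases in the cytosolic ribosomal protein genes and 5 bases in all genes tested. A gene with several listed starts was counted by its longest run. Counted over single starts, 78.0% of 82 windows of the family and 21.9% of 35116 windows in all held a run. These shares describe the letters only, and no test was made on them.

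**Figure D1:**
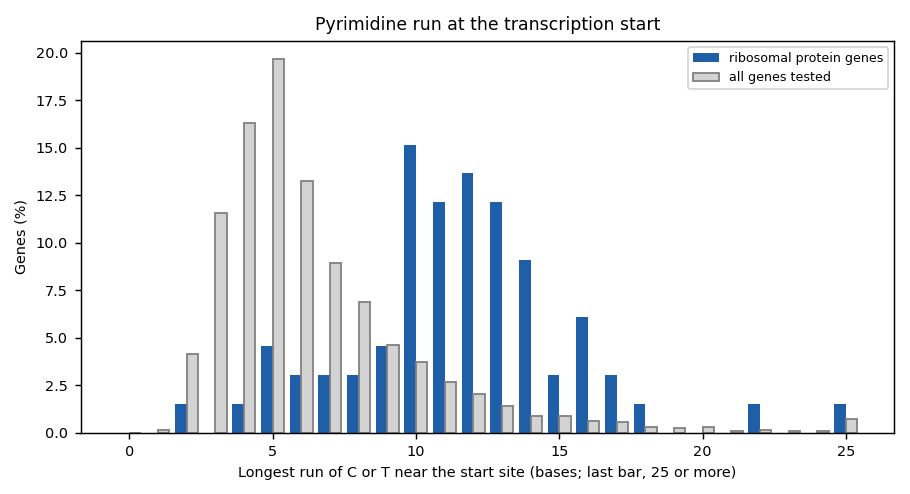
Percent of genes (y axis) by the length in bases of the longest unbroken run of C or T near the listed start (x axis), for 66 ribosomal protein genes (blue bars) and 10849 matched genes among those tested (grey bars); the last pair of bars pools 25 bases or more. The blue bars centre on 12 bases and the grey bars on 5 bases.

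Windows of 30 bases around the RefSeq start on GRCh38.p14 are shown, in the direction of the transcript, for genes that return below, 15 bases before the listed start and 15 from it on. The longest run of C or T is in capitals, as far as it lies in the printed window, and all other bases are in lower case. The first lines show highly expressed genes of both subunits, then RPS14, RPL28 and RPS26, and then RPS4X, whose longest run was 5 bases.
RPLP2, chr11:809952-809981, plus strand: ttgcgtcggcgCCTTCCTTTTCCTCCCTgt
RPL19, chr17:39200308-39200337, plus strand: gagcgagCTCTTTCCTTTCgctgctgcggc
RPS6, chr9:19380222-19380251, minus strand: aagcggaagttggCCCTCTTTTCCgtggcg
RPS14, chr5:150449725-150449754, minus strand: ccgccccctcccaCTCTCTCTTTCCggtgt
RPL28, chr19:55385917-55385946, plus strand: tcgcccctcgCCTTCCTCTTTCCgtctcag
RPS26, chr12:56041903-56041932, plus strand: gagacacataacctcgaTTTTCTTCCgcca
RPS4X, chrX:72277234-72277263, minus strand: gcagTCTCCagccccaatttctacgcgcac

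The next lines set standard genes beside related ones. RPL22 and RPL22L1 both held a run, of 11 and 10 bases. RPL26 held a run of 14 bases, and RPL26L1 held none of 8 bases or more. RPL7L1 had no run longer than 2 bases, and its line has no capitals because the first run of this length lies before the printed window.
RPL22, chr1:6199581-6199610, minus strand: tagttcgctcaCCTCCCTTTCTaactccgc
RPL22L1, chr3:170870181-170870210, minus strand: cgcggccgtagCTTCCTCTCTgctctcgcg
RPL26, chr17:8383179-8383208, minus strand: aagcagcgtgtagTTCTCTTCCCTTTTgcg
RPL26L1, chr5:172958714-172958743, plus strand: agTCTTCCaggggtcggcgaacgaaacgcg
RPL7L1, chr6:42879601-42879630, plus strand: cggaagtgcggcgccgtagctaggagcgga

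The 9 matched genes without a run of 8 bases were RPL3, RPL6, RPL12, RPL36, RPS3A and RPS4X among the core genes and RPL7L1, RPL10L and RPL26L1 among the related ones. RPL36 and RPS3A came within 1 base of it, with runs of 7 bases. The 6 core genes were all strongly expressed, from 363 CPM for RPL36 to 1839 CPM for RPS4X in the DMSO libraries. The absence of these letters from the window says nothing about what binds there.

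Together the 82 genes took 3.86, 4.17, 3.82 and 3.87% of all counts in DMSO replicates 1 to 4. In lenalidomide replicates 1 to 4 they took 3.88, 4.22, 3.88 and 3.66%. The groups overlapped fully, with a highest and a lowest library that were both treated with lenalidomide. The means were 3.93% ± 0.160 (SD, n = 4) with DMSO and 3.91% ± 0.234 (SD, n = 4) with lenalidomide, a difference of -0.0199 percentage points that is smaller than either SD. This difference ran from -0.125 without lenalidomide replicate 2 to 0.0638 without lenalidomide replicate 4, and was 0.0591 without DMSO replicate 2. Large subunit genes made up 2.45% and 2.44% of the counts and small subunit genes 1.48% and 1.47%, with DMSO and lenalidomide respectively. In these bulk samples, fewer cells that express these genes and less of their RNA per cell cannot be told apart.

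Levels between genes were compared per length, as RPKM, which is CPM per 1000 bases of the exonic width that the table gives for each gene. With DMSO the core genes had a median of 326 RPKM, with 50% of them between 191 and 633 RPKM, whereas the median of all genes tested was 6.36 RPKM. Of the 76 core genes, 71 were above the 90th percentile of all genes tested and 37 above the 99th. Mitochondrial ribosomal protein genes had a median of 41.3 RPKM. Although their proteins are used in near equal numbers, the core genes spread over a 343-fold range, from 5.50 ± 0.354 RPKM for RPS26 to 1890 ± 112 RPKM for RPL19 (SD, n = 4). The size of this range depended on the length and on the genes taken. By coding length it was 524-fold over all core genes, and over the 19 core genes with at least 80% unique sequence, described below, it was 79.1-fold by exonic width and 21.6-fold by coding length. In the order of their means, 69 of 75 neighbouring pairs had overlapping values in the 4 DMSO libraries, so that the order of near neighbours is not settled.

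**Figure D2:**
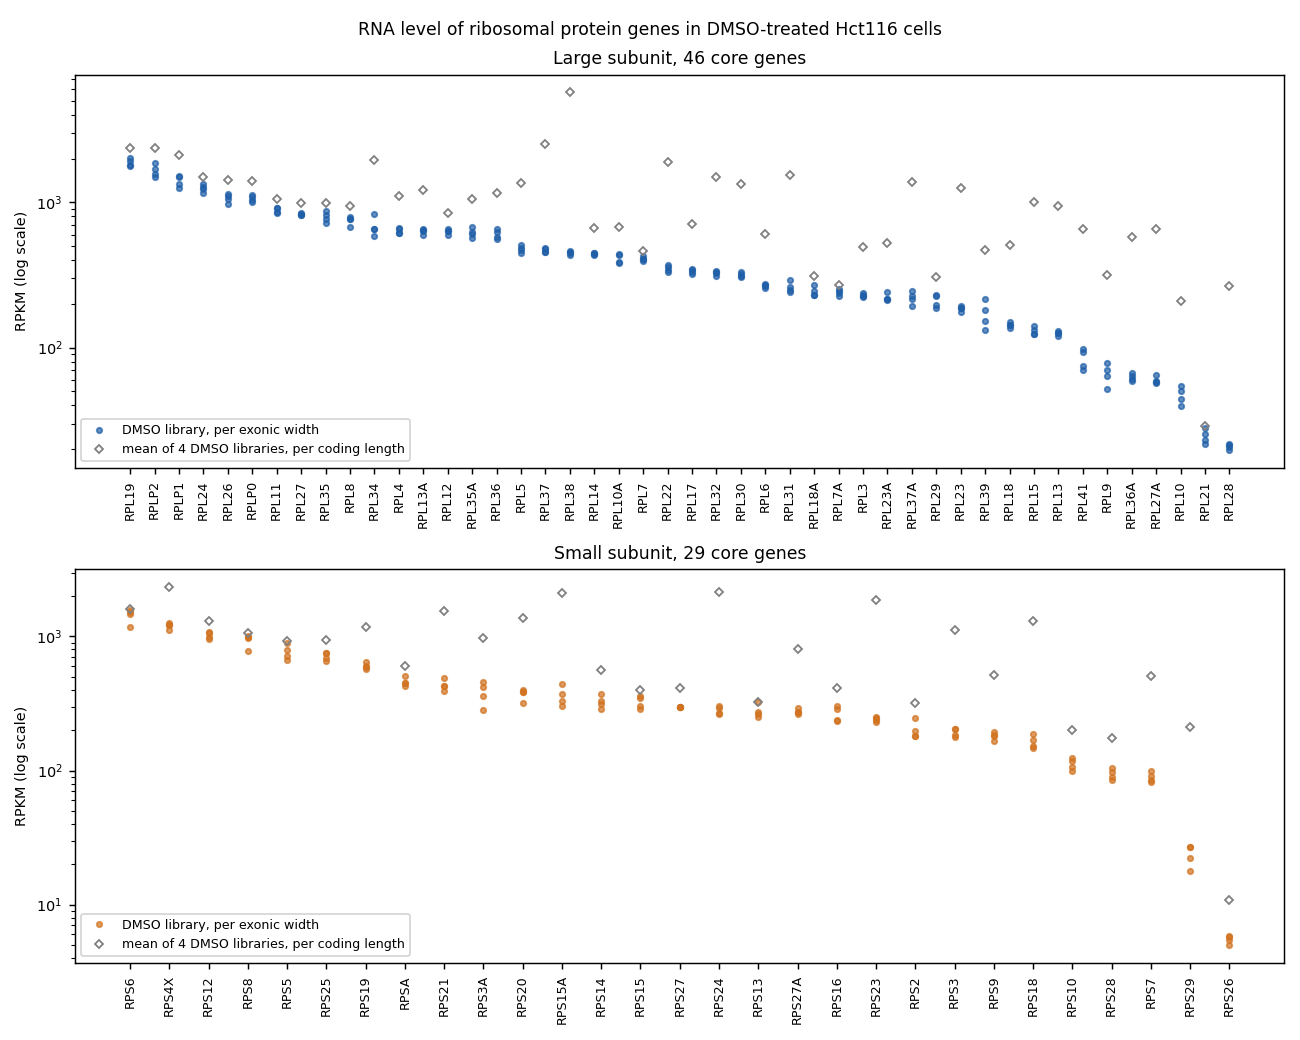
RNA level of 46 large (top) and 29 small (bottom) subunit core genes in RPKM on a log axis, ordered by mean. Filled points are the 4 DMSO libraries per exonic width, and open diamonds are the mean of the same libraries per coding length; the filled points run from RPL19 down to RPL28 in the large and from RPS6 down to RPS26 in the small subunit.

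In the large subunit the highest core genes were RPL19, RPLP2 and RPLP1. RPL19 encodes a protein of the large subunit that takes part in a bridge to the small one, and RPLP1 and RPLP2 encode the acidic proteins of the stalk, the arm that recruits elongation factors. RPL19 had 1938, 1817, 2024 and 1780 RPKM in DMSO replicates 1 to 4. RPLP2 had 1484, 1697, 1856 and 1576 RPKM. RPLP1 had 1249, 1523, 1498 and 1344 RPKM. RPLP1 and RPLP2 are each present in more than 1 copy per ribosome, unlike the other proteins. The scaffold of the same stalk, RPLP0, stood lower at 1061 ± 51.2 RPKM (SD, n = 4), and none of its 4 DMSO libraries reached the lowest RPLP1 library.

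The lowest core genes of the large subunit were RPL28, RPL21 and RPL10. RPL28 had 20.7, 21.6, 21.5 and 19.8 RPKM in the 4 DMSO libraries. RPL21 had 21.8, 25.5, 27.9 and 23.3 RPKM. RPL10, which sits beside the peptidyl transferase centre and joins late in assembly, had 44.1, 54.4, 39.5 and 49.9 RPKM. The values of RPL28 and RPL21 did not overlap each other, nor did those of RPL21 and RPL10. RPL28 lies at chr19:55897300-55914618 on GRCh37 and has an exonic width of 5183 bases in the table for 411 coding bases, so that its RPKM is much lower than its 108 CPM would give per coding base.

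In the small subunit RPS6 and RPS4X were among the highest. RPS6 is the protein that S6 kinase phosphorylates when growth signals are on. It had 1483, 1571, 1184 and 1534 RPKM, with DMSO replicate 3 below the other libraries. RPS4X, encoded on the X chromosome, had 1224, 1219, 1253 and 1123 RPKM. The single low library of RPS6 fell within the range of RPS4X.

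At the low end of the small subunit stood RPS26, RPS29 and RPS7, 3 genes mutated in Diamond-Blackfan anaemia, an inherited failure of red cell production. RPS26, which sits at the exit of the messenger RNA channel, had 5.02, 5.70, 5.83 and 5.46 RPKM. It was below all the other core genes in every DMSO library, and the lowest single value of any other was 17.7 RPKM, of RPS29. RPS29 had 22.1, 26.8, 17.7 and 26.7 RPKM. RPS7 had 82.6, 99.1, 85.7 and 90.5 RPKM.

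The order depended on the length by which counts were divided. Per coding length of the canonical GENCODE transcript, the core genes had a median of 962 RPKM, and RPL38, with 210 coding bases but 2656 bases of exonic width, rose from 451 ± 12.5 to 5702 ± 159 RPKM and to the first place. RPL37 came next at 2537 ± 86.4 RPKM by coding length, against 470.3 ± 16.0 RPKM by exonic width (SD, n = 4). The rank correlation across the 76 genes was 0.65 between exonic width and coding length and 0.74 between exonic width and transcript length, which describes the choice of length since the counts are the same. For 19 core genes the exonic width was more than 2 times the canonical transcript. By all 3 lengths, RPL19, RPLP2 and RPS4X were among the 10 highest core genes, and RPS26, RPL21, RPL10 and RPL28 among the 10 lowest. RPS26 was the lowest by each of them.

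The family has left many processed copies in the genome, and reads from such a gene can match more than 1 place. Named pseudogenes of the core genes numbered 1575, with 133 for RPL21, 87 for RPL23A and 80 for RPL7A. As a measure of this, each stretch of 50 coding bases was looked up in the whole of GRCh37. In the median core gene 49.6% of the stretches were found at no other place, compared with 98.3% in the median mitochondrial ribosomal protein gene. The share depended on the stretch taken. In the median core gene it was 85.8% for stretches of 100 coding bases and 65.0% for 50-base stretches of the whole transcript. For 50-base coding stretches, which are used below, the share was under 50% in 39 core genes and at least 80% in 19.

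The 2 lowest core genes per coding length, RPS26 and RPL21, had no unique stretch of this length. Other core genes with none were RPL36A, RPL39, RPL41, RPS10, RPS27 and RPS28. Across the 76 core genes the rank correlation between the unique share and the level was 0.54 per coding length, 0.45 per exonic width and 0.36 per transcript length. The 39 genes with a unique share under 50% had a median of 606 RPKM per coding length, and the 19 genes with at least 80% had a median of 1152 RPKM. A low unique share did not go with a low level throughout. RPL22 had 11.6% unique stretches and 1902 ± 92.9 RPKM per coding length (SD, n = 4), while RPL28 had 89.8% and only 264 ± 10.7 RPKM. RPL7 had 0.288% and 459.9 ± 16.4 RPKM, which was below the median of the genes with a unique share under 50%. The part of multiple matches in these levels was not tested.

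**Figure D3:**
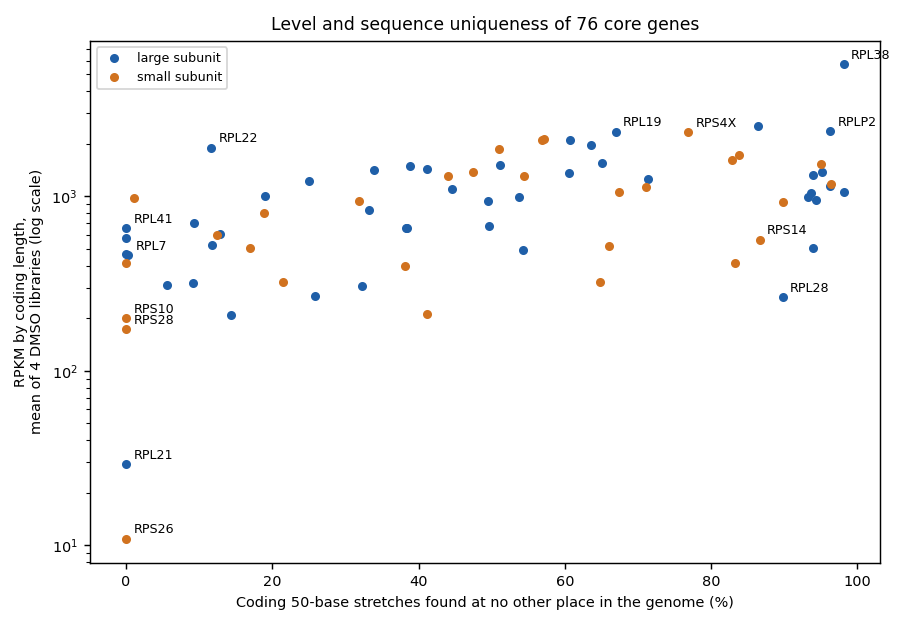
Level of the 76 core genes in RPKM per coding length (y axis, log scale, mean of 4 DMSO libraries) against the percent of coding 50-base stretches found at no other place in GRCh37 (x axis), large subunit in blue and small subunit in orange. RPS26 and RPL21 lie lowest at a unique share of 0, and RPL38 lies highest at 98.1%.

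The table also lists 29 rows named as ribosomal protein pseudogenes, 20 of which passed the filter. They held as many counts as 1.72% of the ribosomal protein counts with DMSO and 1.70% with lenalidomide. RPSAP58, a copy of RPSA, stood out among them with 14455, 16346, 13960 and 14956 counts in the DMSO libraries and 12423, 16023, 12759 and 9394 in the lenalidomide libraries. RPSA itself, which encodes a small subunit protein also known as the laminin receptor, had 18616, 21233, 17993 and 19817 counts with DMSO. Its coding stretches were 12.4% unique, so that the counts of both are uncertain. Readthrough rows joined RPL17 with C18orf32, RPL36A with HNRNPH2 and RPS10 with NUDT3, and their exons overlap those of the genes named first, whose counts are uncertain as well. The row for RPL36A and HNRNPH2 held 14499, 12768, 14549 and 13398 counts with DMSO, against 6908, 6449, 6693 and 6478 for RPL36A alone.

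The balance of the subunits was taken as the median RPKM of the core large subunit genes over that of the core small subunit genes. It was 1.19, 1.04, 1.21 and 1.11 in DMSO replicates 1 to 4. In lenalidomide replicates 1 to 4 it was 1.12, 1.09, 1.10 and 1.06. All lenalidomide values lay within the DMSO range, and the means were 1.14 ± 0.0762 and 1.09 ± 0.0236 (SD, n = 4). By coding length the means were 1.06 and 1.06. Over the 19 core genes with at least 80% unique stretches, the ratio was below 1, with means of 0.868 and 0.872, so that no order of the subunits holds for every choice of genes.

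Related genes stood below their standard partners. RPL3L, known from heart and skeletal muscle, had 3, 2, 2 and 1 counts in the DMSO libraries and 0, 3, 1 and 2 with lenalidomide, while RPL3 had 22358, 21520, 21378 and 21968 with DMSO. RPL10L, a gene without introns known from the testis, had 0, 2, 0 and 0 counts with DMSO and 0, 1, 1 and 1 with lenalidomide. RPL39L, also known from the testis, had 1, 0, 0 and 1 counts with DMSO and 0, 0, 0 and 0 with lenalidomide, while RPL39 had 2405, 3278, 1888 and 2890 with DMSO. For RPL3L, RPL10L and RPL39L no change can be read from so few counts.

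The other 3 related genes were expressed. RPL22L1, which can take the place of RPL22 in the ribosome, had 152 ± 8.13 RPKM beside 350.2 ± 17.1 RPKM of RPL22 (SD, n = 4), and the DMSO libraries of the pair did not overlap. RPL26L1 had 86.2 ± 6.09 RPKM beside 1070 ± 73.8 RPKM of RPL26. RPL7L1, whose product is related to RPL7, had 31.1 ± 0.585 RPKM beside 409 ± 14.6 RPKM of RPL7. Of the 4 related genes with a matched promoter, RPL26L1, RPL7L1 and RPL10L had no run of 8 pyrimidine bases and RPL22L1 had one, while RPL3L and RPL39L were not matched.

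The comparison of lenalidomide with DMSO asked whether the compound changed the RNA of these genes. None of the 79 tested genes passed edgeR's quasi-likelihood test at an adjusted p of 0.05, where 0.0144% of all genes tested passed. At an unadjusted p under 0.05 there was also no gene of the family, against 4.18% of all genes tested, and DESeq2 called none either. Of the 79 log2 fold changes 37 were above and 42 below 0, with a median of -0.0067, and the median over all genes tested was 0.0025. They ran from -0.12 for RPL7L1 to 0.18 for RPL21. Those of 74 genes, or 93.7%, were within 0.1 of 0, compared with 71.9% of all genes tested. This share was not particular to the family. It was 91.4% in mitochondrial ribosomal protein genes, and 92.9% and 95.8% in the lists of translation factors and ribosome assembly genes described below. The part of expression level in the difference from all genes tested was not tested.

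Every one of the 79 confidence intervals at 95% included 0. For 66 genes the whole interval lay within 0.25 of 0 on the log2 scale, so that larger changes lay outside these intervals. For the remaining 13 genes the interval reached past 0.25 in at least 1 direction, so that a change of that size there lay inside it. The median half-width of the interval was 0.16 in the family and 0.17 over all genes tested. Large subunit genes had a median log2 fold change of -0.0050 and small subunit genes of -0.0091. Over the 20 tested genes with at least 80% unique stretches the median was 0.01.

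**Figure D4:**
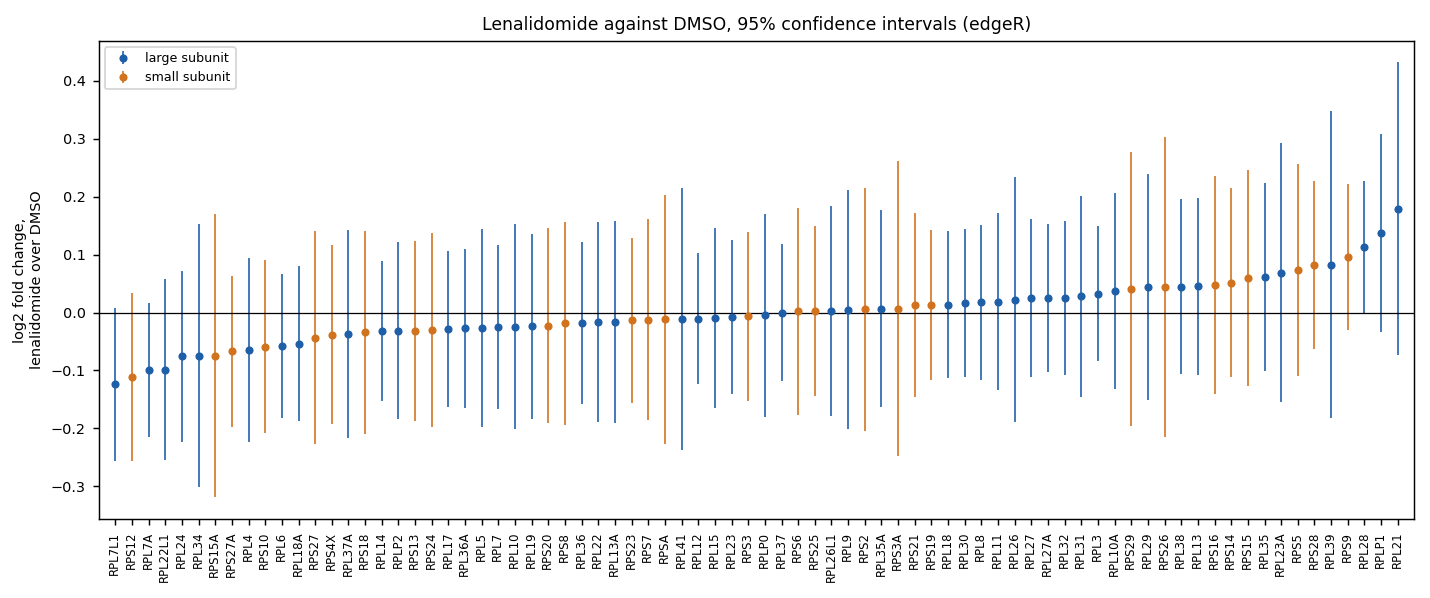
Log2 fold change of lenalidomide over DMSO (y axis) with its 95% confidence interval from edgeR for 78 of the 79 tested ribosomal protein genes (x axis), ordered by value, large subunit in blue and small subunit in orange, 4 libraries per treatment. Points run from -0.12 to 0.18 and all bars cross 0.

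The 6 genes with the smallest p values show the size of single values. RPL28 had 107, 112, 112 and 103 CPM in DMSO replicates 1 to 4. With lenalidomide it had 113, 117, 114 and 125 CPM. The groups did not overlap, although the highest DMSO and the lowest lenalidomide library were close. RPL28 was the only gene of the family with separate groups, of 79, where 1.24% of all genes tested were separate and higher with lenalidomide and 0.840% separate and lower. The log2 fold change of RPL28 was 0.11 (95% interval -0.0012 to 0.23). By the quasi-likelihood test its p was 0.052 before and 0.999 after adjustment. The exact two-sided permutation test of its CPM gave an unadjusted p = 0.0286, the smallest that 4 samples against 4 allow. Any gene with separate groups gets this p, so that it adds nothing to the separation.

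RPL7L1 had 85.3, 85.1, 87.2 and 83.3 CPM with DMSO. With lenalidomide it had 76.5, 84.4, 82.2 and 69.5 CPM, and replicate 2 of this group lay within the DMSO range. Its log2 fold change was -0.12 (95% interval -0.26 to 0.01, exact two-sided permutation p = 0.0571). RPL7A, a large subunit protein that binds ribosomal RNA early in assembly, had 219, 211, 224 and 202 CPM with DMSO. It had 205, 199.7, 205 and 188 CPM with lenalidomide, with replicates 1 and 3 inside the DMSO range and replicates 2 and 4 below it. For RPL7A the log2 fold change was -0.10 (95% interval -0.22 to 0.02, exact permutation p = 0.0857).

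RPLP1, of the stalk, had 639.7, 779.8, 767 and 688 CPM with DMSO and 708, 870.4, 754 and 829 CPM with lenalidomide. The log2 fold change was 0.14 (95% interval -0.03 to 0.31, exact permutation p = 0.229), and 2 lenalidomide libraries were above all DMSO libraries. RPLP2 and RPLP0 gave log2 fold changes of -0.03 and -0.01, with intervals from -0.18 to 0.12 and from -0.18 to 0.17. RPS12 had 536, 545, 501 and 485 CPM with DMSO and 495, 518, 476 and 425 CPM with lenalidomide, where replicate 4 was lowest. Its log2 fold change was -0.11 (95% interval -0.26 to 0.03, exact permutation p = 0.171). RPS9, a small subunit protein near the decoding site, had 275, 320.3, 303 and 307 CPM with DMSO and 311, 331, 333 and 312 CPM with lenalidomide, which gave a log2 fold change of 0.10 (95% interval -0.03 to 0.22, exact permutation p = 0.143).

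RPL21 had the largest fitted value, from low counts. It had 12.3, 14.4, 15.8 and 13.2 CPM with DMSO and 13.7, 19.3, 13.1 and 16.9 CPM with lenalidomide. Lenalidomide replicates 2 and 4 were above and replicates 1 and 3 within the DMSO range, and the 95% interval of its log2 fold change of 0.18 ran from -0.07 to 0.43.

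Lenalidomide is used in myelodysplastic syndrome with loss of part of the long arm of chromosome 5, where RPS14 is among the lost genes. RPS14 lies at chr5:149822198-149829302 on GRCh37, on the minus strand, and its start is printed above. It had 225, 291, 259 and 248 CPM with DMSO. With lenalidomide it had 247, 288, 271 and 255 CPM, within the DMSO range in all 4 libraries. For RPS14 the log2 fold change was 0.05 (95% interval -0.11 to 0.21, exact permutation p = 0.629).

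RPL5 and RPL11 bind 5S ribosomal RNA and, when assembly fails, hold the ubiquitin ligase MDM2. RPL5 had 1184, 1219, 1284 and 1134 CPM with DMSO and 1158, 1374, 1166 and 1038 CPM with lenalidomide. RPL11 had 539, 575, 581 and 540.2 CPM with DMSO and 565, 624, 585 and 489.6 CPM with lenalidomide. In both genes lenalidomide replicate 2 was the highest of the 8 libraries and lenalidomide replicate 4 the lowest, so that the lenalidomide values enclosed the DMSO values. The log2 fold changes were -0.03 (95% interval -0.20 to 0.14) and 0.02 (95% interval -0.13 to 0.17).

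RPS27A encodes ubiquitin fused to a small subunit protein. It had 404, 373, 360.2 and 373 CPM with DMSO and 360.1, 386, 364 and 331 CPM with lenalidomide, a log2 fold change of -0.07 (95% interval -0.20 to 0.06). RPSA had 498, 586, 526 and 523 CPM with DMSO and 526, 654, 503 and 433 CPM with lenalidomide, with the highest and the lowest value both in the lenalidomide group. For RPSA the log2 fold change was -0.01 (95% interval -0.23 to 0.20). Among the expressed related genes, RPL22L1 had 327, 314, 305 and 288 CPM with DMSO and 298, 324, 277 and 253 CPM with lenalidomide, a log2 fold change of -0.10 (95% interval -0.25 to 0.06), while its partner RPL22 had one of -0.02 (95% interval -0.19 to 0.16).

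The genes with extreme levels gave small values as well. Among the highest, log2 fold changes were -0.02 for RPL19, -0.04 for RPS4X and 0.002 for RPS6. Among the lowest, they were 0.04 for RPS26, 0.04 for RPS29, -0.01 for RPS7 and -0.02 for RPL10. All 7 intervals included 0. RPS26 had 3.43, 3.89, 3.97 and 3.72 CPM with DMSO and 3.76, 4.52, 3.95 and 3.19 CPM with lenalidomide.

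RPL19 had 1418, 1330, 1482 and 1303 CPM with DMSO and 1351, 1514, 1374 and 1202 CPM with lenalidomide. RPS4X had 1868, 1861, 1913 and 1715 CPM with DMSO and 1783, 2018, 1730 and 1632 CPM with lenalidomide. In both genes lenalidomide replicate 2 was the highest and lenalidomide replicate 4 the lowest of all 8 libraries. RPS6 had 1240, 1313, 989.9 and 1283 CPM with DMSO and 1148, 1201, 1292 and 1191 CPM with lenalidomide. The stalk gene RPLP2 had 732, 837, 915 and 777 CPM with DMSO and 769, 849, 792 and 779.9 CPM with lenalidomide. RPLP0 had 1266, 1412, 1373 and 1314 CPM with DMSO and 1302, 1572, 1299 and 1174 CPM with lenalidomide. For RPS6 and RPLP2 all lenalidomide values lay within the DMSO range, and for RPLP0 they reached beyond it on both sides.

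RPL10 had 126, 155, 113 and 142 CPM with DMSO and 128, 127, 138 and 134 CPM with lenalidomide. RPS29 had 33.6, 40.7, 26.9 and 40.6 CPM with DMSO and 34.5, 40.5, 36.9 and 33.9 CPM with lenalidomide. RPS7 had 271, 326, 282 and 297 CPM with DMSO and 277, 323, 313 and 252 CPM with lenalidomide. In RPL10 and RPS29 the lenalidomide libraries lay inside the wider DMSO range, while RPS7 had its lowest value in lenalidomide replicate 4. RPL26 had 615, 647, 663 and 565 CPM with DMSO and 613, 779, 612 and 524 CPM with lenalidomide. Its relative RPL26L1 had 58.9, 60.5, 67.5 and 57.9 CPM with DMSO and 56.4, 73.8, 58.4 and 56.4 CPM with lenalidomide. RPL7 had 359, 342, 329.7 and 338 CPM with DMSO and 323, 357, 365 and 301 CPM with lenalidomide. Lenalidomide replicate 2 was the highest library for both RPL26 and RPL26L1, and log2 fold changes were 0.02, 0.0026 and -0.02, with intervals from -0.19 to 0.23, from -0.18 to 0.18 and from -0.17 to 0.12. The value of RPL26L1 turned below 0 with other scaling.

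Of the ribosomal protein genes known from Diamond-Blackfan anaemia, 18 were tested. None passed the test or had an unadjusted p under 0.05, and their median log2 fold change was 0.01, with 11 above and 7 below 0. Ribosomal genes outside the rule on names, such as FAU and RACK1, were tested as a list of 5. None of these had an unadjusted p under 0.05, and their median was -0.04.

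Translation factors and partners whose messages also start with a pyrimidine run numbered 14, among them EEF1A1 and EEF2, which bring aminoacyl-tRNA and move the ribosome along. None passed the test and their median log2 fold change was -0.03. PABPC1, the poly(A) binding protein, was the only one with an unadjusted p under 0.05. It was chosen after its value was seen. The log2 fold change of PABPC1 was 0.34 (95% interval 0.05 to 0.62), and edgeR's quasi-likelihood test gave an adjusted p of 0.999, from 0.025 before adjustment. Of 24 ribosome assembly genes, such as the nucleolar proteins NCL and NOP56, none had an unadjusted p under 0.05, and the median was -0.04. Of 81 tested mitochondrial ribosomal protein genes none passed the test and the median was -0.03. MRPS28 was the only one of these with an unadjusted p under 0.05, and was named after its value was seen. Its log2 fold change was 0.30 (95% interval 0.15 to 0.46), with an adjusted p of 0.840 by the quasi-likelihood test.

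Single libraries lay further apart than the treatments, and many genes of the family shared the direction. Each gene's log2 CPM was set against its mean in the same treatment. The median over the 79 genes was -0.045, 0.057, 0.00012 and -0.033 in DMSO replicates 1 to 4. In lenalidomide replicates 1 to 4 it was -0.030, 0.120, 0.037 and -0.129. Lenalidomide replicate 2 held 70 of 79 genes above their treatment mean and was highest of its group for 56. Lenalidomide replicate 4 held 10 above the mean and was lowest for 58. DMSO replicate 2 held 64 above it and was highest for 45. In other genes with a mean DMSO level inside the range of the family, 3.75 to 1839 CPM, the medians stayed within 0.015 of 0 in all 8 libraries. That range takes in most genes tested, and TMM scaling holds the median of so broad a set near 0. These medians therefore do not show that the deviations were particular to the family.

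**Figure D5:**
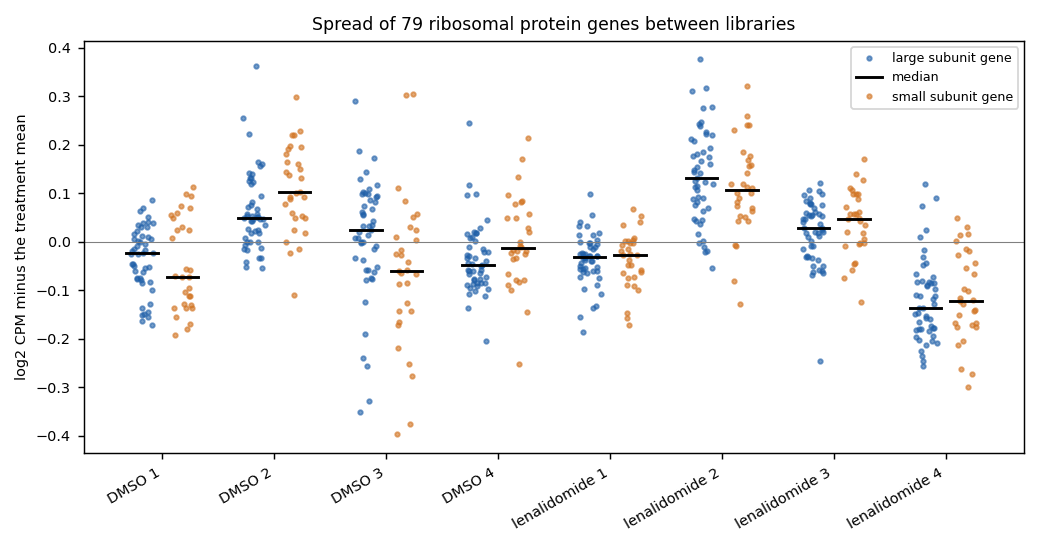
Log2 CPM of each of the 79 tested ribosomal protein genes minus its mean over the 4 libraries of the same treatment (y axis), by library (x axis), large subunit in blue and small subunit in orange, with black bars at the medians. The medians are highest in lenalidomide replicate 2 and lowest in lenalidomide replicate 4, and in DMSO replicate 3 the subunits part.

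Other groups of the translation apparatus deviated with the family in lenalidomide replicates 2 and 4, but not in every library. In lenalidomide replicate 2 the median was 0.097 over the translation factors, 0.082 over the assembly genes and 0.078 over the mitochondrial ribosomal protein genes. In lenalidomide replicate 4 these medians were -0.117, -0.096 and -0.090. In DMSO replicate 2, where the family was high, they were -0.020, -0.026 and 0.029, so that the translation factors and assembly genes lay on the other side of 0. In DMSO replicate 3, where the median of the family was near 0, that of the assembly genes was 0.116. Lenalidomide replicate 4 had the fewest counts of the 8 libraries, and lenalidomide replicate 2 was not at either end. The part of library size in these deviations was not tested.

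DMSO replicate 3 differed in another way. It held 24 genes at their highest and 24 at their lowest value among the DMSO libraries. Of the 49 large subunit genes 30 were above their mean there, with a median of 0.024, and of the 30 small subunit genes 10 were above it, with a median of -0.060. RPS3A was lowest in this library, with 725, 936, 578 and 857 CPM in DMSO replicates 1 to 4. RPS15A was highest in it, with 849, 756, 1006 and 685 CPM. RPL34 had 662, 664, 836 and 593 CPM and RPL9 had 178, 216, 144 and 193 CPM, the first highest and the second lowest in replicate 3. With lenalidomide no library split the subunits this way, and the medians of large and small subunit genes had the same sign in each.

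The coefficient of variation between the 4 libraries of a treatment had a median of 6.44% with DMSO and 8.46% with lenalidomide over the 79 genes. In 10821 other genes with a mean DMSO level inside the range of the family, 3.75 to 1839 CPM, it was 6.13% and 6.47%. The family was above the median of these other genes in 44 of 79 genes with DMSO and in 57 of 79 with lenalidomide. The other genes share only this broad range and were not matched in level to the family, whose core genes had a median of 450 CPM with DMSO. The part of expression level in this comparison was not tested. RPL39, RPL21 and RPS15A had the largest mean of both coefficients. RPL39 had 64.4, 90.4, 55.2 and 76.3 CPM with DMSO and 72.3, 86.2, 78.6 and 65.9 CPM with lenalidomide. RPS15A had 799, 929.7, 713 and 688 CPM with lenalidomide.

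The steadiest genes were RPL12, RPL3 and RPL37. RPL12, part of the base of the stalk, had 433, 416, 392 and 417 CPM with DMSO and 404, 409, 427 and 407 CPM with lenalidomide. RPL3, near the peptidyl transferase centre, had 598, 594, 625 and 580.0 CPM with DMSO and 627, 603, 636 and 585 CPM with lenalidomide. RPL37 had 754, 766, 719 and 716 CPM with DMSO and 721, 774, 744 and 713 CPM with lenalidomide. In each of the 3 genes the values of both treatments overlapped, and the log2 fold changes were -0.01, 0.03 and -0.00021, with intervals from -0.12 to 0.10, from -0.08 to 0.15 and from -0.12 to 0.12.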

How the data were processed

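Total RNA of 8 Hct116 samples, 4 with DMSO and 4 with lenalidomide, was made into ScriptSeq v2 libraries. The authors aligned the reads to hg19 with QuasR, spliced alignment on and otherwise default parameters, and deposited raw counts per gene for the UCSC known gene models, with the exonic width of each gene. The submitters' processing notes name bcl2fastq 2.17. By the usual defaults of that package, reads that match several places are dropped and strand is ignored, but neither setting is spelled out in the sources used here, nor is the read length. Groups were taken from the sample labels, and no sample column was left unused.

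The tests used edgeR 4.0.16, with limma 3.58.1, under R 4.3.3. Low genes were removed by filterByExpr (minimum count 10, minimum total 15), and 13925 genes remained. TMM factors, a single treatment factor and the quasi-likelihood test (glmQLFit, glmQLFTest) gave log2 fold changes with 95% intervals, and p-values were Benjamini-Hochberg adjusted over all genes tested, with 0.05 as the threshold. Totals of 28218471 to 37473413 counts set the precision, together with a common dispersion of 0.00573. Intervals cover the spread between these libraries, and PCR copies cannot be told from independent molecules. The fit was tested on simulated data. Single genes were also compared by exact two-sided permutation tests of CPM.

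Alternatives were RLE factors, DESeq2 1.42.0, the replicate number as a block, no filter beyond 1 count, a length trend removed, and leaving out each library. Other lengths and the restriction to genes with at least 80% unique stretches were added after the data were examined. Gene positions, transcripts and unique stretches come from GENCODE and the genome sequence on GRCh37, and promoters from RefSeq on GRCh38.p14. The members and the gene lists were chosen with earlier results of these data known. Values in every library are given for the 3 highest and 3 lowest core genes of each subunit by DMSO level, the 6 smallest p, the 3 largest and 3 smallest coefficients of variation, RPS14, RPS27A, RPSA, RPL5, RPL11, the stalk genes, and related genes with their partners. For 1 gene that met this rule the values are not reported here. The other genes named singly were chosen after their values were seen.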

Additional observations from a re-analysis of the deposited data

Results flagged for a closer look

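Among 70 sets of 4 libraries examined, 2 held 1 library far from the others by Dixon's ratio, the gap to the nearest library over the whole range, and chance picks about 1 in 20 sets. The ribosomal protein share of counts was 4.17% in DMSO replicate 2, whereas the other DMSO libraries lay between 3.82 and 3.87% (ratio 0.849). RPL26L1 had 73.8 CPM in lenalidomide replicate 2, with the other lenalidomide libraries between 56.4 and 58.4 CPM (ratio 0.888).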

How the results depend on the processing

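No gene of the family was called in any of the 13 refits or among the genes with at least 80% unique stretches. Over all genes tested, 2 were called, against 9 with DESeq2, 6 with the replicate block, 4 without the filter, and between 1 and 2 with 1 library left out. The cause of these differences was not tested. Under the block on replicate number the family's median log2 fold change was -0.0063. With this block 2 of its 79 genes, RPL7L1 and RPLP1, had an unadjusted p under 0.05, where the unblocked fit had none. Over all genes tested 5.47% did with the block. Samples of the same number correlated at 0.025, -0.027, 0.033 and 0.26, so the numbers were not taken to pair them, and only replicate 4 correlated best with its own number. The family's median was between -0.05 without lenalidomide replicate 2 and 0.04 without lenalidomide replicate 4, and -0.01 with RLE, DESeq2 or no filter. Without lenalidomide replicate 2, 3 of the 79 genes, RPL7L1, RPL22L1 and RPS12, had an unadjusted p under 0.05, against 7.42% of all genes tested. Without lenalidomide replicate 1 or 3 there were 2 such genes each, against 4.29% and 4.14%. Without DMSO replicate 2 or 3 there was 1 each, against 3.08% and 6.03%.

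The ratio of large to small subunit genes moved to 1.68 (DMSO) and 1.69 (lenalidomide) for summed RPKM, which also counts the genes of each subunit, to 1.04 and 1.07 for counts not divided by length, to 1.06 with lenalidomide by coding length, to 1.04 with DMSO by transcript length, and to 0.868 and 0.872 for genes with at least 80% unique stretches. Without single libraries it was 1.11 to 1.17 (DMSO) and 1.08 to 1.10 (lenalidomide), and the difference in the share of counts was -0.125 to 0.0638 percentage points.

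Single genes kept their direction in 349 of 403 refits, and 54 turned, from 21 genes whose fitted values were at most 0.08 in size. RPL26L1 turned to -0.0015 (RLE), -0.0018 (DESeq2), -0.0044 (replicate block), -0.0053 (no filter) and -0.0045 (length trend), RPS6 to -0.0016 (RLE and DESeq2) and -0.0067 (no filter), and with the length trend removed RPL37 to 0.013 and RPLP0 to 0.0053. With 1 library left out, the values ran from -0.10 to 0.053 (RPL10), -0.032 to 0.082 (RPL11), -0.040 to 0.0070 (RPL12), -0.080 to 0.031 (RPL19), -0.098 to 0.047 (RPL22), -0.096 to 0.10 (RPL26), -0.10 to 0.049 (RPL26L1), -0.024 to 0.018 (RPL37), -0.027 to 0.21 (RPL39), -0.11 to 0.032 (RPL5), -0.066 to 0.025 (RPL7), -0.093 to 0.052 (RPLP0), -0.084 to 0.025 (RPLP2), -0.0091 to 0.12 (RPS14), -0.17 to 0.033 (RPS15A), -0.043 to 0.12 (RPS26), -0.073 to 0.11 (RPS29), -0.10 to 0.0034 (RPS4X), -0.086 to 0.045 (RPS6), -0.067 to 0.051 (RPS7), -0.13 to 0.073 (RPSA).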
